A study of Mus musculus with 2 samples.

Results

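The genes described here handle metal ions in regulatory T cells (Tregs) of the mouse spleen: the metallothioneins Mt1 and Mt2, the iron carrier Trf, the iron importers Tfrc and Slc11a2, the ferritin subunits Fth1 and Ftl1, and the iron exporter Slc40a1. These 8 genes, of 28692 in the deposited matrices, were chosen by name, and the choice was made with the high ratios of Mt1 and Trf between the libraries already known. The ratios between the libraries are therefore a description and support nothing. Tregs are CD4 T cells that depend on the transcription factor Foxp3 and restrain other immune cells. All mice were male, 8 weeks old, on the B6 background and of the Pparg-Tdt.Foxp3-Gfp reporter strain, in which a red reporter follows Pparg and a green reporter follows Foxp3. Spleens of 2 or 3 mice were pooled for the sort, and the sorted cells were counted with droplet-based 3′ sequencing. Tregs without PPARg reporter signal gave the PPARg-negative library and Tregs labelled low in PPARg gave the PPARg-low library. The deposited files of the PPARg-low library carry the word pos in their names, and the label's word is used here. Each group is thus 1 library, so no difference has a replicate check, no test was possible, and the 95% intervals given reflect only the error of counting.

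Metallothioneins are small, cysteine-rich proteins that bind zinc and copper and buffer their free levels. Their genes are switched on by the zinc-sensing factor Mtf1, which binds metal response elements, and also by glucocorticoids and oxidative stress. Transferrin carries ferric iron in blood and is made mainly by the liver. Cells take it up through the transferrin receptor, release the iron in endosomes with the help of Slc11a2, store it in ferritin and export it through ferroportin, the product of Slc40a1. Dividing T cells are known for their need of iron taken up through the transferrin receptor. In the spleen, red pulp macrophages are the cells known for high ferroportin. The messages for ferritin, ferroportin and the transferrin receptor carry iron-responsive elements, short stem-loops that iron regulatory proteins bind when iron is scarce. Binding near the start of a message blocks its translation, and binding in the 3′ untranslated region (UTR) of Tfrc protects it from decay. Ferritin protein can therefore change with no change in its RNA, and only RNA was measured here.

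Mt1 and Mt2 are neighbours, on the plus strand of mm10 chromosome 8, and 5513 bases separate the end of Mt2 from the start of Mt1. Mt1 (ENSMUSG00000031765) spans 94179082 to 94180327 and Mt2 (ENSMUSG00000031762) spans 94172664 to 94173568. The 2 genes shared cells in the values below, so the 250 bases before each RefSeq start site (GRCm38.p6) are shown, with matches to the core of the metal response element in capitals. The sequences are in lower case otherwise and run 5′ to 3′ on the plus strand, chr8:94178839-94179088 for Mt1 and chr8:94172368-94172617 for Mt2.
Mt1: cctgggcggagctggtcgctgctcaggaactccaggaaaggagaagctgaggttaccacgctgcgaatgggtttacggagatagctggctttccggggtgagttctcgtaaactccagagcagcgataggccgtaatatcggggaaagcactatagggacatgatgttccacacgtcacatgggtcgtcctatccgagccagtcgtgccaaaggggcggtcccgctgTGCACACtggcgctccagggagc
Mt2: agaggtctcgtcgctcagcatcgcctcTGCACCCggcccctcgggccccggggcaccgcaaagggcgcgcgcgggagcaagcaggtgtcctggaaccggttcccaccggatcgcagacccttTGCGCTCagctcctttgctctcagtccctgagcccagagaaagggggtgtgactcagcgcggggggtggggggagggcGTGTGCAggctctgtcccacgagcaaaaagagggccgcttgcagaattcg
The forms searched were TGCACNC and TGCGCNC, on both strands, in the 250 bases before and the 50 bases after the start. Mt1 had 3 matches in that window, of which 1 lay before the RefSeq start and the others began at bases 3 and 21 after it. Mt2 had 4, of which 3 lay before its RefSeq start and 1 began at base 5 after it. The Mt2 gene start given above, 94172664, lies further along, so all 4 lie before that position. Sides thus hold only for the RefSeq start, and where transcription began in these cells was not measured. Of 32851 mouse promoter windows of the same length in the RefSeq table, 25.7% held at least 1 match, 1.97% at least 3 and 0.517% at least 4. Mt3, the metallothionein best known from brain, had 1 match. For Tfrc, 1 of its listed windows held 2 matches, which overlap each other, and the windows of Fth1 and Ftl1 held 0. The core of the antioxidant response element, searched as TGACNNNGC on both strands, had 1 match in the Mt2 window and 0 in that of Mt1, and 12.4% of windows held at least 1. A match is a run of letters and not a shown binding site.

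The iron-responsive elements are shown because they separate the iron genes by the side of the message that carries them. A stem-loop was taken as a C, 5 bases, the loop CAGTGN and 5 bases that pair with the first 5, G-T pairs allowed, and the loop is in capitals. The first 4 lines are the sites in the 3′ UTR of Tfrc, on chr16 at 32631225-32631241, 32631604-32631620, 32631669-32631685 and 32631716-32631732 (plus strand). The others lie in 5′ UTRs: Fth1 at chr19:9982738-9982754 (plus strand), Ftl1 at chr7:45459785-45459801 (minus strand) and Slc40a1 at chr1:45925471-45925487 (minus strand).
Tfrc site a: cggaagCAGTGCcttcc
Tfrc site b: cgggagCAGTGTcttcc
Tfrc site c: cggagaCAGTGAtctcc
Tfrc site d: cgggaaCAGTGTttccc
Fth1 site: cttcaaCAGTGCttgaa
Ftl1 site: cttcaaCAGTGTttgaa
Slc40a1 site: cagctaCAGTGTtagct
The 2 ferritin stem-loops differ only in the last base of the loop. Over the 21877 protein-coding genes of GENCODE M21 (mm10), 0.142% had a match of this form in a 5′ UTR and 0.590% in a 3′ UTR. No match was found in the transcripts of Slc11a2, Mt1, Mt2 or Trf by this strict form.

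There were 1992 PPARg-low and 2902 PPARg-negative barcodes, with 3227201 and 6114403 unique molecular identifiers (UMIs, a count of captured transcripts). A limit of 10% mitochondrial UMIs kept 1619 and 2633 cells with medians of 1517 and 2171 UMIs. Cells with under 20% of their UMIs from ribosomal protein genes, called ribosome-poor, numbered 951 in the PPARg-low library and 614 in the other. They were shallower (medians of 978 and 853 UMIs, against 2294 and 2455 in the other, ribosome-rich cells) and had more mitochondrial RNA (medians of 6.80 and 6.92%, against 2.74 and 2.29%). Because the 2 kinds of cells are mixed unequally, the members' library ratios are also given within them, and those of the other named genes where a call ended there. The part of RNA quality in any result was not tested. Markers of T cells, as a list of 10, were plain in both libraries, though Foxp3 itself was found in only 97 of 1619 and 141 of 2633 cells. By the size rule below, 8 of the 10 were higher in the PPARg-low library, beside 24.2% of all genes. Among ribosome-rich cells 7 were higher and 1 lower, beside 17.2 and 3.92% of all genes. Among ribosome-poor cells 2 were higher and 0 lower, beside 6.82 and 5.4%. The macrophage and monocyte list of 12 genes summed to 101 UMIs (34.8 CPM, UMIs per 1e6) in the PPARg-low and 22 (3.73 CPM) in the PPARg-negative library. Of that list, Adgre1 and Cd5l were at 0 in both, and C1qa was at 11 against 0 UMIs. C1qb was found in 10 PPARg-low and 2 PPARg-negative cells, C1qc in 10 and 0, Spic in 5 and 0, and Lyz2 in 3 and 4. The 12 erythroid genes summed to 54 and 25 UMIs, and the 5 platelet genes to 0 in both. The 7 B cell genes summed to 554 and 150 CPM, of which Cd74 gave 1509 and 712 UMIs. Cd74 is also made by other cells, and the B cell gene Pax5 was at 0 in both libraries, while Cd79a had 4 and 29 UMIs. The part of RNA from other cells in the members' ratios was not tested.

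UMIs were summed over the kept cells of a library and given as CPM (UMIs of a gene per 1e6 UMIs of those cells). A gene with 30 or more UMIs in both libraries together was called higher or lower at a ratio of at least 1.5 with its interval on that side of 1. By this rule 5 members were higher in the PPARg-low library (Mt1, Mt2, Trf, Tfrc and Slc11a2), 0 were lower, the 2 ferritin genes were neither, and Slc40a1 had too few UMIs. Over all 9224 genes measured, 24.2% were higher and 4.47% lower. The members were partly chosen for this contrast, so nothing is read from the difference between these shares. The median log2 ratio was 1.61 over the 7 measured members and 0.29 over all genes. Within ribosome-rich cells 2 of 5 measured members were higher and 0 lower (17.2% of 8564 genes were higher and 3.92% lower), and within ribosome-poor cells 2 of 5 (6.82% of 6540 genes were higher and 5.4% lower); in both they were Mt1 and Trf.

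**Figure D1:**
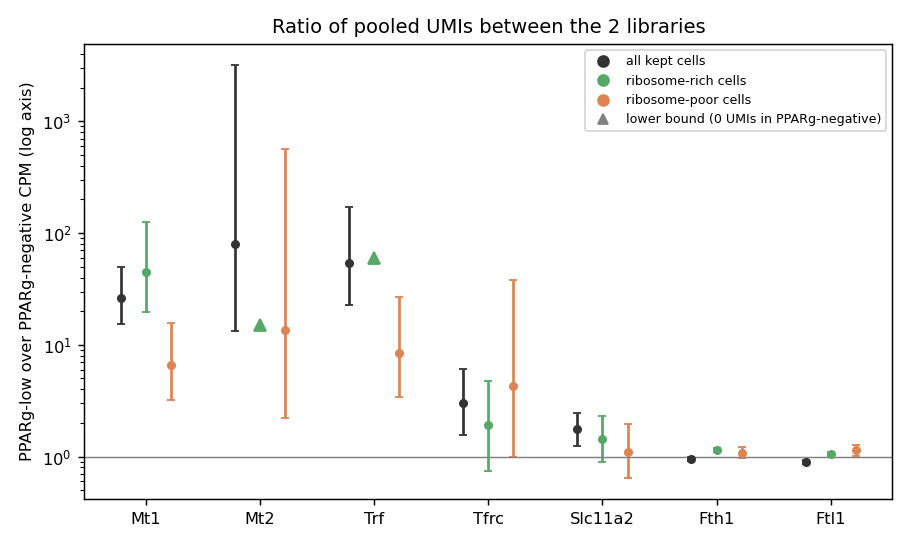
Ratio of CPM in the PPARg-low over the PPARg-negative library (log axis) for the 7 members with 30 or more UMIs, over all kept cells, ribosome-rich and ribosome-poor cells. Bars are exact 95% counting intervals. Triangles, marked lower bound in the key, are ratios against a floor of 3 counts and carry no interval. Mt1, Mt2 and Trf lie well above 1 in all 3, while Fth1 and Ftl1 lie close to 1, below it over all cells and above it within both kinds of cells.

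Mt1 had 182 UMIs (62.7 CPM) in the PPARg-low library and 14 (2.37 CPM) in the PPARg-negative library, a ratio of 26.4 (15.3 to 49.3). Within ribosome-rich cells it had 89 against 6 UMIs, a ratio of 44.5 (19.7 to 124), and within ribosome-poor cells 93 against 8, a ratio of 6.61 (3.22 to 15.8). The smaller ratio among ribosome-poor cells came with a higher PPARg-negative level there, 12.2 against 1.14 CPM. In the PPARg-low library the 2 kinds of cells were at 80.6 and 50.9 CPM. The direction was the same in both kinds of cells.

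Mt2 had 39 UMIs (13.4 CPM) in the PPARg-low library and 1 UMI in the PPARg-negative library. The ratio of 79.3 rests on that single UMI, and its interval runs from 13.4 to 3210. Within ribosome-rich cells Mt2 had 15 against 0 UMIs, at least 15-fold higher against a floor of 3 counts over the PPARg-negative cells. Within ribosome-poor cells it had 24 against 1 (13.6, 2.22 to 561). Both metallothioneins were thus higher in the PPARg-low library in each kind of cell, though Mt2 fell under the 30 UMIs needed for a call there. An antisense gene, Gm45774, overlaps Mt2 in the annotation, so a share of its UMIs could be hard to place if strand was not used in counting.

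Trf (ENSMUSG00000032554, chromosome 9, 103204001 to 103230444, minus strand), which encodes transferrin, had 134 UMIs (46.2 CPM) in the PPARg-low library and 5 (0.848 CPM) in the PPARg-negative library. The ratio was 54.5 (22.8 to 170). It rests on few PPARg-negative UMIs: it was 30.1 with no mitochondrial filter (159 against 10 UMIs), 23.8 with each cell weighted equally and 87.4 without the cell with most Trf UMIs of each library. All 5 PPARg-negative UMIs lay in ribosome-poor cells, where the ratio was 8.41 (3.45 to 26.7, 74 against 5 UMIs). Within ribosome-rich cells Trf had 60 against 0 UMIs, a ratio of 60.0 against the floor of 3 counts, with an exact lower limit of 47.3. A second gene model on the same strand, Gm20425, overlaps Trf and had 0 UMIs in both libraries.

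Shares of cells depend on depth, so they were compared after random thinning of every cell to 750 UMIs, for the 1381 PPARg-low and 2394 PPARg-negative cells that had as many (238 and 239 cells had fewer). At this depth 48 of 1381 PPARg-low cells held an Mt1 UMI (3.48%, exact binomial 2.57 to 4.58%), against 7 of 2394 PPARg-negative cells (0.292%, 0.118 to 0.602%). Mt2 was found in 9 PPARg-low cells (0.652%, 0.298 to 1.23%) and in 1 PPARg-negative cell (0.0418%). Trf was found in 64 PPARg-low cells (4.63%, 3.59 to 5.88%) and in 1 PPARg-negative cell (0.0418%, 0.00106 to 0.233%). For Trf this draw gave the highest PPARg-low share of 20 thinning draws, whose mean was 4.11% (3.62 to 4.63%). The PPARg-negative mean for Trf was 0.0668% (0 to 0.0835%). The PPARg-low draws ran from 2.46 to 3.84% for Mt1. For Mt2 the draw shown lay below the PPARg-low mean of 0.833% (0.579 to 1.23%). Without thinning the shares were 5.0 and 0.494% for Mt1, 1.42 and 0.0380% for Mt2, and 6.98 and 0.152% for Trf. Within each kind of cell the thinned Mt2 intervals of the libraries overlapped. They were 0.00384 to 0.841% (PPARg-low) against 0 to 0.186% among ribosome-rich cells. Among ribosome-poor cells they were 0.480 to 2.17% against 0.00612 to 1.34%. Such shares were not computed over all genes, so nothing is read from the gaps between libraries. Most PPARg-low cells held no UMI of these genes at this depth, which counts cells with a UMI and not cells that express the gene.

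**Figure D2:**
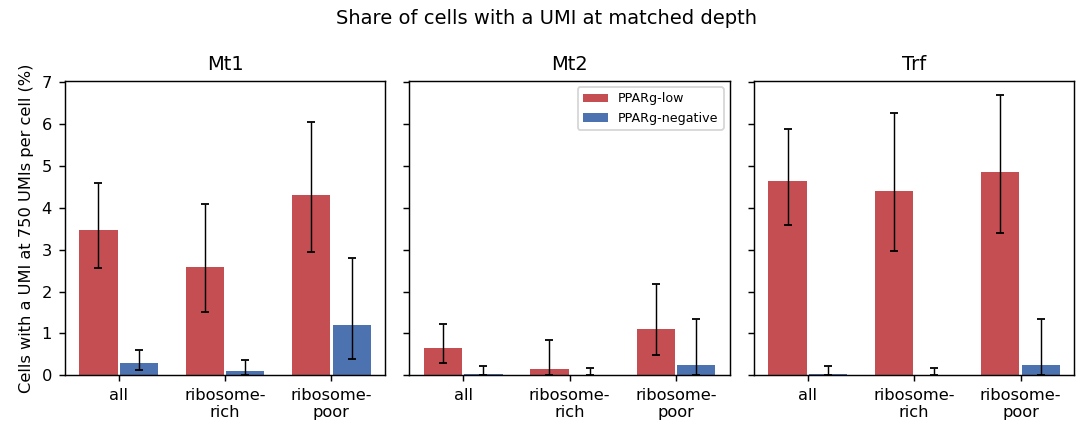
Share of cells with at least 1 UMI of Mt1, Mt2 or Trf (%) after each cell was thinned to 750 UMIs, for all, ribosome-rich and ribosome-poor cells of each library; bars start at 0 and whiskers are exact binomial 95% intervals. PPARg-low cells reach 3.48% for Mt1 and 4.63% for Trf, against 0.292 and 0.0418% of PPARg-negative cells. The bars show a single thinning draw, and over 20 draws the means for Trf were 4.11 and 0.0668%.

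At matched depth Trf was found in 29 of 660 ribosome-rich (4.39%, 2.96 to 6.25%) and 35 of 721 ribosome-poor PPARg-low cells (4.85%, 3.4 to 6.69%), with overlapping intervals. By CPM over all kept PPARg-low cells, Trf was higher in ribosome-poor cells, at 64.1 against 34.3 CPM, a ratio of 1.87 (1.31 to 2.67). Mt1 was at 17 of 660 (2.58%, 1.51 to 4.09%) and 31 of 721 (4.30%, 2.94 to 6.05%), with overlapping intervals. For Mt2 the counts were 1 of 660 and 8 of 721. Free RNA in droplets gives UMIs in cells that do not express a gene, and neither library held a class of other cells large enough to measure it, so its part in these shares was not tested.

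The UMIs of Mt1 and Trf were spread over cells differently. In the PPARg-low library without thinning, the 182 Mt1 UMIs came from 81 cells, of which 41 held 1, 16 held 2 and 24 held 3 or more, up to 9 in a cell. The 134 Trf UMIs came from 113 cells, of which 95 held 1, 17 held 2 and 1 held 5. The 10 cells with most UMIs of the gene gave 34.6% of Mt1 and 17.2% of Trf. The variance over the mean of UMIs per cell, which is 1 for random single captures, was 3.62 for Mt1 and 1.32 for Trf at unequal depths, and 1.82 and 1.12 at 750 UMIs. Mt2 had 39 UMIs in 23 cells, up to 6 in a cell, with a ratio of variance to mean of 2.62. In the PPARg-negative library 12 of 13 Mt1-positive cells held a single UMI.

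**Figure D3:**
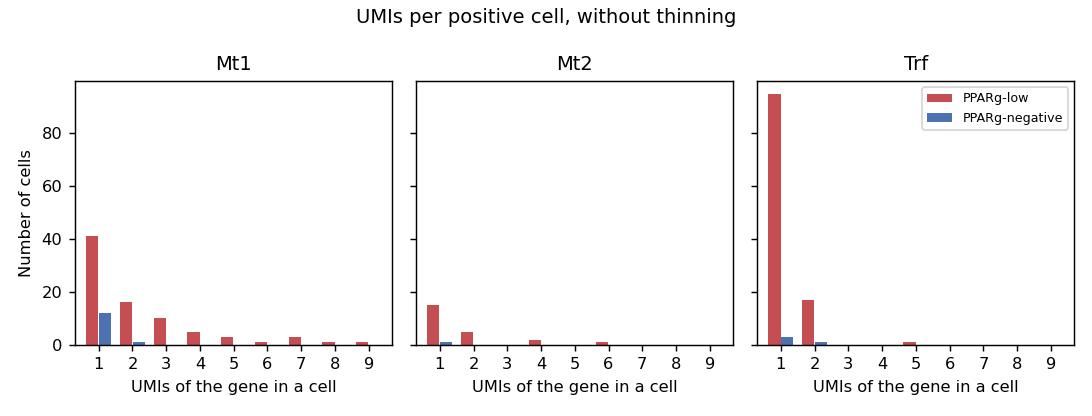
Number of cells (vertical axis, from 0) holding a given number of UMIs (horizontal axis) of Mt1, Mt2 or Trf, without thinning; cells with none are not drawn. In the PPARg-low library Mt1 has a tail up to 9 UMIs in a cell, while 95 of 113 Trf-positive cells hold 1 UMI.

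Mt1 and Mt2 were found in the same cells more often than their shares alone would give. At 750 UMIs, 4 PPARg-low cells held both, where the product of the 2 shares gives 0.313 cells. Mt2 was found in 4 of 48 Mt1-positive cells (8.33%, 2.32 to 19.98%) and in 5 of 1333 Mt1-negative cells (0.375%, 0.122 to 0.873%). Read the other way, 4 of 9 Mt2-positive cells (44.4%, 13.7 to 78.8%) held Mt1. Over 20 thinning draws the mean share was 12.7% of Mt1-positive cells (6.52 to 23.8%) against 0.441% of Mt1-negative cells. Without thinning, 13 cells held both. Mt2 was then found in 10 of 1538 cells with no Mt1 UMI (0.650%), 3 of 41 with 1 (7.32%), 4 of 16 with 2 (25%) and 6 of 24 with 3 or more (25%). Median depth rose over those same classes, from 1476 to 1854, 2152 and 2540 UMIs, so only the thinned shares are at equal depth. The correlation of Mt1 with Mt2 over the 1381 thinned cells was 0.25 (Pearson r of log counts, as a description; the cells share a library), the highest for Mt2 among the 4667 genes compared. Joint detection could not be described in the PPARg-negative library, which had 1 Mt2-positive cell.

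Trf was not shared with Mt1 in this way. At 750 UMIs, 1 PPARg-low cell held both where the product of shares gives 2.22, and Trf was found in 1 of 48 Mt1-positive cells (2.08%, 0.0527 to 11.1%) and in 63 of 1333 Mt1-negative cells (4.73%, 3.65 to 6.01%). The interval for Mt1-positive cells holds the share of the others, so neither sharing nor avoidance was detectable at this depth. The mean over 20 draws was 3.09% against 4.14%. Without thinning, 8 cells held both, against a product of 5.65. The correlation of Mt1 with Trf was -0.03. Mt2 and Trf met in 1 thinned cell, against a product of 0.417.

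Other genes known from activated Tregs sat beside Mt1 and Trf in the thinned PPARg-low cells to differing degrees. Klrg1, an inhibitory receptor of effector cells, was found in 28 of 48 Mt1-positive cells (58.3%, 43.2 to 72.4%), against 40.5% of Mt1-negative cells. Of those 48 cells 31 were ribosome-poor, and among ribosome-poor cells the shares were 61.3% (42.2 to 78.2%) and 52.6%, the latter inside the interval. Among ribosome-rich cells they were 52.9% (27.8 to 77.0%) and 27.5%. With Trf, Klrg1 was found in 33 of 64 cells of both kinds (51.6%, 38.7 to 64.2%), against 40.6%, which lies inside that interval. Penk, which encodes the opioid peptide precursor proenkephalin, was found in 17 of 64 Trf-positive cells (26.6%, 16.3 to 39.1%) and in 12.5% of Trf-negative cells. The thinned shares given here come from a single draw. Without thinning, Penk was in 28 of 113 Trf-positive cells (24.8%, 17.1 to 33.8%), and the 18.3% of Trf-negative cells lies inside that interval. Among ribosome-poor cells the unthinned shares were 16.1% (8.02 to 27.7%) and 16.99%. Among ribosome-rich cells they were 35.3% (22.4 to 49.9%) and 20.3%. With Mt1, Penk was found in 6 of 48 thinned cells (12.5%, 4.73 to 25.2%), against 13.2%. Il10, an anti-inflammatory cytokine, was found in 5 of 48 Mt1-positive (10.4%, 3.47 to 22.7%) and 2 of 64 Trf-positive cells (3.13%, 0.381 to 10.8%), against 4.35 and 4.63% of the cells without them. These partners were picked from genes already known to be high in the PPARg-low library. By correlation, among genes found in 2% or more of these cells, those most like Mt1 were Myc, Nsrp1, Mpdu1, Myd88 and Nadk (r of 0.12 to 0.17). Mt2, found in fewer cells and so not ranked, had the higher r of 0.25 given above. Those most like Mt2 after Mt1 were Cmtm6, Larp4b, Slc9a8 and Cd200 (0.14 to 0.16). Those most like Trf were Zmym5, Gm26526, Tnfrsf4, Vps54 and Snhg20 (0.11 to 0.14). In counts this sparse such weak values are no finding.

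Cells of both libraries were clustered without the 8 members, into 10 clusters. Clusters are named by number, since most hold cells mainly of 1 library. Among the clusters with 50 or more PPARg-low cells, Mt1 was highest in cluster 6, led by Ccl4, Il10, Il1r2 and Ccr8, at 129.8 CPM (102 to 162, 76 UMIs in 30 of 290 cells). It was at 75.3 CPM (53.3 to 103) in cluster 2, led by Ccr2, Ccr3, Gzmb and Itgae, and at 50.1 CPM (37.2 to 66.1) in cluster 1, led by Frmd5, Ctsh, Neb and Epcam. The intervals of clusters 6 and 2 overlap slightly, as do those of clusters 2 and 1. In cluster 5, led by Tbc1d4, Mt1 was at 12.3 CPM (3.99 to 28.7), and in cluster 4, led by Rmnd1, at 5.30 CPM (0.134 to 29.5). Clusters 4 and 5 had 1 of 106 and 3 of 191 PPARg-low cells with an Mt1 UMI at median depths of 1918.5 and 1990 UMIs, while cluster 6 had 30 of 290 at 1572 UMIs.

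Trf had another order. It was highest in cluster 1, at 82.2 CPM (65.4 to 102, 82 UMIs in 72 of 665 cells), then in cluster 6, at 54.7 CPM (37.4 to 77.2), with overlapping intervals. Clusters 2, 5 and 4 lay at 17.8, 17.2 and 15.9 CPM and could not be told apart. Cluster 2, which was second for Mt1, was therefore among the low clusters for Trf. By CPM Mt2 was highest in cluster 2, at 33.7 (19.6 to 53.9, 17 UMIs in 7 of 299 cells). It was at 13.7 (5.90 to 26.9, 8 UMIs in 6 of 290 cells) in cluster 6, with overlapping intervals. In cluster 1 it was at 8.02 (3.46 to 15.8, 8 UMIs in 7 of 665 cells). Mt2-positive cells were thus about as many in clusters 2 and 6, and the order rests on few cells. Cluster 2 holds many cells of both libraries, 299 PPARg-low and 397 PPARg-negative. Within it Mt1 had 38 against 4 UMIs, a ratio of 12.7 (4.58 to 49.1), Mt2 had 17 against 0 and Trf 9 against 0. The same comparison for Slc11a2 gave 9 against 26 UMIs, a ratio of 0.464 (0.191 to 1.02). Cluster 2 was chosen after its cells were seen. Clusters 6 and 1 hold only 28 and 47 PPARg-negative cells. In those of cluster 6, Mt1 was at 76.5 CPM (15.8 to 224, 3 UMIs) and Trf had 0 UMIs (0 to 94.1 CPM). In those of cluster 1, Mt1 and Trf were each at 28.0 CPM (3.39 to 101, 2 UMIs). All these intervals overlap those of the PPARg-low cells. No gap between libraries in Mt1 or Trf could therefore be told within clusters 6 and 1.

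**Figure D4:**
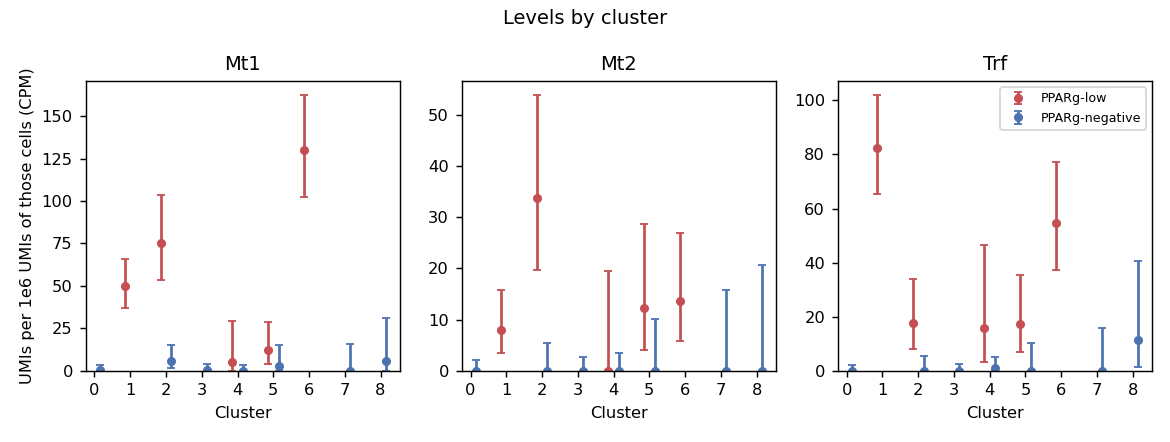
CPM of Mt1, Mt2 and Trf (linear axes, a scale for each gene) in each cluster with 50 or more cells of a library; bars are exact Poisson 95% intervals. In PPARg-low cells Mt1 is highest in cluster 6 at 129.8 CPM, Mt2 in cluster 2 at 33.7 CPM and Trf in cluster 1 at 82.2 CPM. The PPARg-negative cells drawn reach at most 5.91 CPM for Mt1 (cluster 2) and 11.2 CPM for Trf (cluster 8). The 47 and 28 PPARg-negative cells of clusters 1 and 6 are too few to be drawn.

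Tfrc (ENSMUSG00000022797, chromosome 16, 32608920 to 32632794, plus strand), the receptor that brings iron-loaded transferrin into the cell, had few UMIs: 24 (8.27 CPM) in the PPARg-low and 16 (2.71 CPM) in the PPARg-negative library, a ratio of 3.05 (1.55 to 6.14). Within ribosome-rich cells the counts were 9 against 14 (1.93, 0.736 to 4.78) and within ribosome-poor cells 15 against 2 (4.26, 0.991 to 38.4). Both intervals hold 1, and both counts lie under the 30 UMIs of the call. In the PPARg-low library 10 of the 23 Tfrc-positive cells lay in cluster 6, at 18.8 CPM (9.38 to 33.6), against 6.02 CPM (2.21 to 13.1) in cluster 1. Slc11a2 (ENSMUSG00000023030, chromosome 15, 100387898 to 100425072, minus strand), the divalent metal transporter that moves ferrous iron across the endosomal membrane, had 70 and 81 UMIs, 24.1 against 13.7 CPM, a ratio of 1.76 (1.26 to 2.45). The call ended without ribosomal protein, mitochondrial and Malat1 UMIs in the total (1.49) and relative to the median ratio of all genes (1.44). It also ended within both kinds of cells, at 1.45 (0.897 to 2.29) among ribosome-rich and 1.11 (0.641 to 1.98) among ribosome-poor cells. In both libraries Slc11a2 had more CPM in ribosome-poor cells, by 2.14-fold (1.30 to 3.57) and 2.80-fold (1.62 to 4.66). Within the PPARg-low library, ribosome-poor cells made up 58.7% by cell number. They gave fewer UMIs there than ribosome-rich cells, 1154486 against 1747224, and CPM weights cells by their UMIs. The part of this mix in the Slc11a2 ratio was not tested.

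The ferritin genes were the abundant members. Fth1 (ENSMUSG00000024661, chromosome 19, 9980598 to 9985098, plus strand) encodes the heavy subunit, which oxidises ferrous iron, and Ftl1 (ENSMUSG00000050708, chromosome 7, 45457944 to 45459884, minus strand) the light subunit, which aids the forming of the iron core. Fth1 was at 1204 CPM (3494 UMIs) in the PPARg-low and 1262 CPM (7445 UMIs) in the PPARg-negative library, a ratio of 0.954 (0.916 to 0.993). Ftl1 was at 1168 and 1312 CPM (3389 and 7740 UMIs), a ratio of 0.890 (0.854 to 0.927). Both ratios turned within the 2 kinds of cells. Fth1 was at 1.14 (1.09 to 1.19) among ribosome-rich and 1.08 (0.964 to 1.22) among ribosome-poor cells, and Ftl1 at 1.05 (1.01 to 1.10) and 1.14 (1.01 to 1.28). In both libraries ribosome-poor cells held less ferritin RNA per UMI, 0.469 and 0.493 of the ribosome-rich CPM for Fth1 and 0.478 and 0.443 for Ftl1. Those cells are 58.7% of the PPARg-low but 23.3% of the PPARg-negative cells. Relative to the median ratio of all genes both lay lower, at 0.782 for Fth1 and 0.730 for Ftl1 over all kept cells. No direction is therefore given for ferritin RNA. Genes near Ftl1 in the annotation overlap it (Gm22133 and Gm10252), and processed copies of ferritin genes elsewhere could share reads, so both levels are uncertain to that extent.

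**Figure D5:**
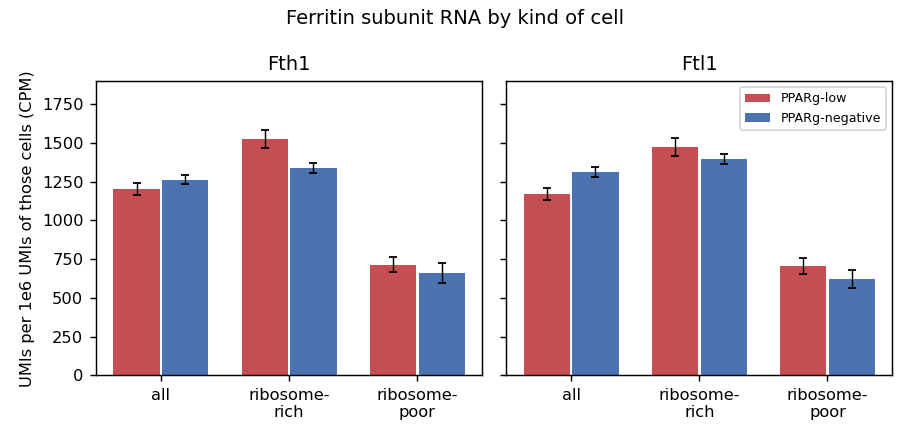
CPM of Fth1 and Ftl1 over all kept cells, ribosome-rich and ribosome-poor cells of each library; bars start at 0 and whiskers are exact Poisson 95% intervals. Fth1 is at 1204 against 1262 CPM over all cells, with the PPARg-low library lower, and at 1527 against 1338 among ribosome-rich cells, with the PPARg-low library higher.

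At 750 UMIs per cell Fth1 was found in 50.6% of PPARg-low and 58.0% of PPARg-negative cells and Ftl1 in 49.5 and 56.1%. Among ribosome-rich cells the shares were 67.7% (64.0 to 71.3%) against 62.9% (60.8 to 65.1%) for Fth1 and 66.8 against 61.4% for Ftl1, and among ribosome-poor cells 35.0 against 34.3% and 33.7 against 30.7%. At this depth ferritin RNA was found in no larger a share of Mt1-positive PPARg-low cells than of the rest. Fth1 was in 18 of 48 (37.5%, 24.0 to 52.6%), against 51.1% of Mt1-negative cells, and the intervals overlap. Ftl1 was in 41.7% (27.6 to 56.8%), against 49.8%. Of those 48 cells 31 were ribosome-poor. The Fth1 shares were 64.7% (38.3 to 85.8%) against 67.8% among ribosome-rich cells. Among ribosome-poor cells they were 22.6% (9.59 to 41.1%) against 35.5%.

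Slc40a1 (ENSMUSG00000025993, chromosome 1, 45908068 to 45926523, minus strand), which encodes the exporter ferroportin, had 6 UMIs in 6 PPARg-low cells and 0 among the PPARg-negative cells. Of those 6 cells, 3 also held a UMI of a set of 10 macrophage genes trimmed after the values were seen, 12 UMIs in all, whereas 32 of all 1619 PPARg-low cells did. Each of the 6 cells also held UMIs of Cd3e, Cd3d, Cd3g or Trac, as did 1611 of the 1613 PPARg-low cells without Slc40a1. This does not tell which cells the Slc40a1 UMIs came from. Of the 113 Trf-positive PPARg-low cells, 8 held a macrophage UMI (7.08%, 3.11 to 13.5%), against 24 of 1506 Trf-negative cells (1.59%, 1.02 to 2.36%), at similar median depths of 1581 and 1510.5 UMIs. Of the 81 Mt1-positive cells 3 did (3.70%, 0.770 to 10.4%). The other Trf-positive cells held none, and leaving out every cell with a UMI of these or of the trimmed haemoglobin and B cell genes gave a Trf ratio of 51.7 and an Mt1 ratio of 30.8. Leaving out cells with any UMI of the untrimmed B cell, macrophage and platelet lists or of haemoglobin gave 39.4 (15.9 to 126) for Trf and 44.9 (18.3 to 143) for Mt1, with 57 and 65 PPARg-low UMIs left.

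The genes that work beside the members were taken from 9 lists, and their counts are read against the 24.2% of all genes that were higher over all cells, 17.2% among ribosome-rich and 6.82% among ribosome-poor cells. Mtf1, the zinc sensor that drives metallothionein genes, had 42 and 77 UMIs, a ratio of 1.11 (0.742 to 1.64). Its ratio was 1.4998 (0.934 to 2.36) among ribosome-rich cells and 0.401 (0.175 to 0.891) among ribosome-poor cells, the latter from 12 against 17 UMIs, under the 30 of the size rule. Slc30a1, an Mtf1 target that exports zinc, had 23 and 46 UMIs, a ratio of 1.02 (0.588 to 1.71). Mt3 had 6 and 3 UMIs and Mt4 had 0 in both.

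Of 15 measured zinc transporters 7 were higher and 0 lower over all cells (median log2 ratio 0.72), but 3 of 14 were higher among ribosome-rich and 1 of 9 among ribosome-poor cells (median log2 ratio -0.05). Slc39a4, a zinc importer, was the member higher in both. It had 99 against 23 UMIs, a ratio of 8.75 (5.51 to 14.4), with 8.06 (4.45 to 15.3) among ribosome-rich and 4.55 (2.07 to 11.8) among ribosome-poor cells. By the interval bound nearest to 1 the next were Slc39a1 (1.79, 1.42 to 2.26) and Slc39a6 (1.75, 1.22 to 2.49). Their ratios among ribosome-poor cells were 1.31 (0.859 to 2.03) and 0.682 (0.408 to 1.15). Of 8 measured copper genes, Slc31a2 was higher (1.64, 1.13 to 2.38), and its call ended within both kinds of cells (1.41 and 1.14). Ccs, the copper chaperone of superoxide dismutase, was lower, with 217 against 719 UMIs and a ratio of 0.613 (0.525 to 0.715). It was at 0.702 among ribosome-rich cells, short of the size rule, and at 0.560 among ribosome-poor cells.

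Among genes of iron transport, sensing and use, most measured genes passed the rule in neither direction. In the uptake and transport list 1 of 3 was higher, the mitochondrial iron importer Slc25a28 (54 against 61 UMIs, 1.80, 1.22 to 2.64, and 2.08, 0.819 to 6.28, among ribosome-poor cells). In the sensing and ferritin turnover list 2 of 7 were higher, Fbxl5, which targets an iron regulatory protein for decay (1.63, 1.28 to 2.07), and Pcbp4 (1.85, 1.18 to 2.89). Among ribosome-poor cells Fbxl5 was at 1.41 (0.833 to 2.46) and Pcbp4 at 1.14 (0.508 to 2.72), and the Pcbp4 interval among ribosome-rich cells also held 1 (0.996 to 3.18). Of 16 genes of iron-sulfur cluster assembly 3 were higher: Lyrm4 (2.52, 1.71 to 3.73), Ciapin1 (1.77) and Nfs1 (1.63, and 1.16 among ribosome-poor cells). Over all cells these 3 lists had 0 lower members. In the iron-sulfur list 4 of 16 were higher and 1 lower among ribosome-rich cells, and 2 of 12 higher and 1 lower among ribosome-poor cells. The median log2 ratios of the 3 lists were 0.86, 0.45 and 0.23, beside 0.29 for all genes.

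Of 15 measured haem genes 4 were higher and 0 lower, near the share of all genes, with 3 of 13 among ribosome-rich and 1 of 7 among ribosome-poor cells. Hmox1, which breaks haem down and frees its iron, had 34 against 5 UMIs, a ratio of 13.8 (5.38 to 45.3), and is also among the macrophage markers. It was at 18.0 (5.25 to 95.4) among ribosome-rich and 4.55 (1.07 to 40.8) among ribosome-poor cells, from 18 against 3 and 16 against 2 UMIs, under the 30 of the size rule. Without thinning, 3 PPARg-low cells held Hmox1 and Mt1, against a product of shares of 1.55, and 5 held Hmox1 and Trf, against 2.16; at 750 UMIs 0 cells did, with products under 1. Alad and Cpox, enzymes of haem synthesis, had ratios of 3.01 (2.35 to 3.87) and 2.26 (1.70 to 3.0), and among ribosome-poor cells were at 1.65 (0.991 to 2.85) and 0.932 (0.553 to 1.60).

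Of 14 glutathione and peroxide defence genes 3 were higher and 0 lower, also near the share of all genes, and among ribosome-poor cells 0 of 12 were higher and 1 lower. Srxn1, which repairs oxidised peroxiredoxins, had 36 against 7 UMIs, a ratio of 10.5 (4.59 to 27.8), and was at 2.27 (0.733 to 9.34) among ribosome-poor cells. The amino acid transporter chain Slc3a2 was at 2.15 (1.91 to 2.42) and glutathione reductase Gsr at 1.55 (1.24 to 1.93). Among ribosome-poor cells they were at 1.32 and 1.33, short of the size rule, and Gsr fell just short of it among ribosome-rich cells too.

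Glucocorticoids also induce metallothionein genes, and of 9 measured genes of that list 6 were higher and 1 lower over all cells. Among ribosome-rich cells 4 were higher and 2 lower of 9, and among ribosome-poor cells 2 were higher and 1 lower of 8. Dusp1, a phosphatase, was at 5.58 (4.80 to 6.50), with 5.05 and 5.15 within the 2 kinds. Klf9 was at 2.65 (1.75 to 4.03), and at 2.37 (0.948 to 7.06) among ribosome-poor cells. Fkbp5 was at 2.59 (2.06 to 3.26), and at 0.989 (0.691 to 1.43) among ribosome-poor cells. Tsc22d3, another classic glucocorticoid target, was lower, with 496 against 1610 UMIs and a ratio of 0.626 (0.565 to 0.693). It was at 0.659 among ribosome-rich and 0.668 among ribosome-poor cells, the latter just short of the size rule. The median log2 ratios of the copper, haem, glutathione and glucocorticoid lists over all cells were 0.13, 0.24, 0.21 and 0.82.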

How the data were processed

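The authors deposited raw UMI counts, as 1 matrix of genes by cell barcodes for each library, with no normalization recorded. Per the submitters' processing notes, Cell Ranger 2.1.0 was used with build mm10, on Chromium Single Cell 3′ v2 libraries per the labels' protocols. Annotation, strand setting and cell calling: not given in the sources used here. Of 28692 gene identifiers, 28339 were found in GENCODE M21.

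Barcodes with over 10% mitochondrial UMIs (373 PPARg-low, 269 PPARg-negative) or under 200 genes were left out. The libraries shared 5 barcodes. Scrublet (scanpy 1.11.5) marked 11 (0.679%) PPARg-low and 8 (0.304%) PPARg-negative cells, so undetected doublets stay possible; marked cells were kept. UMI sums were compared as CPM with exact conditional binomial intervals, and shares with exact Clopper-Pearson intervals (scipy 1.17.1); the ratio interval was tested on simulated data. A gene at 0 in a library entered at a floor of 3 counts over the group. Cells were thinned with a fixed seed. Clusters used 2000 variable genes without the members, 15 neighbours in 20 components and Leiden clustering at resolution 1 (leidenalg 0.10.2). No reads were checked, and each library is a pool, so p-values were not computed.

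The members, gene lists, filters and the 20% ribosomal split were chosen with earlier results of these data known. All 8 members are named; from each list at most 3 genes in each direction past the size rule, by the interval bound nearest to 1; and for Mt1, Mt2 and Trf the 5 genes with the highest correlation, among genes found in 2% or more of the thinned PPARg-low cells. Mtf1, Slc30a1, Mt3, Mt4 and the partners Klrg1, Penk and Il10 are named outside that rule. The dendritic cell list summed to 270 and 150 CPM in the PPARg-low and PPARg-negative libraries, and the NK and CD8 T cell list to 34.8 and 33.1 CPM. Promoter windows and their start sites came from RefSeq (GRCm38.p6).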

Additional observations from a re-analysis of the deposited data

How the results depend on the processing

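The library ratios of the 7 measured members were recomputed under 14 alternatives (cell filters, doublets, shared barcodes, scaling, cell weights, cells with other cell types' markers, kinds of cells). Mt1, Mt2 and Trf stayed above 1 in all of them, from 6.61 to 44.9, from 7.59 to 81.9 and from 4.02 to 243. Ribosome-poor cells alone gave 6.61 for Mt1 and 8.41 for Trf, and a minimum of 500 genes per cell gave 243 for Trf (116 against 1 UMI). Cluster 2 alone gave 12.7 for Mt1. Against the floor of 3 counts it gave 7.59 for Mt2 and 4.02 for Trf, with exact lower limits of 5.53 and 2.65. Cluster 2 and the trimmed marker set were added after seeing the data. The count of members past the size rule fell from 5 to 3 with a 5% mitochondrial filter, to 3 without cells holding any marker UMI of other cell types, and to 2 within ribosome-rich and 2 within ribosome-poor cells. It was 4 without ribosomal protein, mitochondrial and Malat1 UMIs and 4 relative to the median of all genes, where Slc11a2 lost its call. This count had 11 alternatives, and was not run with equal weights per cell, without the top cell of a gene or in cluster 2. List genes were recomputed only within the 2 kinds of cells. Slc11a2 turned to 0.464 in cluster 2; the cause was not tested. Fth1 ranged from 0.782 to 1.14 and Ftl1 from 0.730 to 1.14. Removing the median shift of all genes lowers every log2 ratio by 0.29. The share of Mt1-positive cells with Mt2 ranged from 5.88 to 16.05% over 8 alternatives, and that with Trf from 0 to 9.88%, with 0% at 500 UMIs (0 of 33 cells) and 0% among ribosome-poor cells (0 of 31). No paired analysis was possible because each group is 1 library. Depth limits Mt2, Tfrc and Slc40a1 most, with 40 or fewer UMIs each.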

Other observations

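Barcodes left out for over 10% mitochondrial UMIs, 373 PPARg-low and 269 PPARg-negative, also held UMIs of the members. Trf was at 76.8 CPM (25 UMIs in 21 barcodes) in the PPARg-low and 23.0 CPM (5 UMIs in 2 barcodes) in the PPARg-negative left-out barcodes. Mt1 had 8 UMIs against 0 and Mt2 had 2 against 0. Fth1 was at 504 and 580 CPM and Ftl1 at 747 and 488 CPM, all below the levels of the kept cells of the same library. Slc11a2 was at 33.8 CPM (11 UMIs) and 13.8 CPM (3 UMIs), and Tfrc had 4 and 5 UMIs.

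In the smallest cluster, led by cell cycle genes such as Top2a and Mki67, the 16 PPARg-low cells held 9 Mt1 UMIs in 3 cells (90.9 CPM, 41.6 to 173) and 0 of Mt2 and Trf. The 12 PPARg-negative cells of that cluster held 1 Mt1 UMI.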
